A study of Mus musculus with 35 samples.

Results

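The transcripts described here are 10 genes of immune checkpoint and costimulation pathways, measured in microglia sorted from the midbrain, striatum and prefrontal cortex (PFC) of adult mice. They were the inhibitory receptors Pdcd1, Lag3, Havcr2, Cd200r1 and Sirpa, the inhibitory ligands Cd274 and Vsir, and the costimulatory molecules Cd86, Cd80 and Cd40. The genes were selected by symbol, with values by brain region already known, and all 10 were among the 21236 genes of the counts table. Their region values are therefore a description, and the calls counted further on support nothing about them. All mice were heterozygous for Tmem119-2A-CreERT2, carried Ai14(RCL-tdTomato)-D and were given tamoxifen, so that tdTomato was switched on in cells that express Tmem119, and tdTomato-positive cells were sorted for RNA-seq. There were 6 male and 6 female mice, each giving 1 sample per region except male mouse 3, which had no PFC sample. This gave 12 midbrain, 12 striatum and 11 PFC samples, 35 in all, with 6 samples in each group of region and sex and 5 in the male PFC. No group was left without Cre, reporter or tamoxifen, and Cre was driven from the Tmem119 locus, so the sorted cells are those in which that locus was active.

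T cell activation is set by the balance of costimulatory and inhibitory signals delivered by the cells that T cells meet. CD80 and CD86 on an antigen-presenting cell engage CD28 to promote activation or CTLA-4 to restrain it, and CD40 is the receptor through which helper T cells license that cell. PD-1 (Pdcd1), LAG-3 (Lag3) and TIM-3 (Havcr2) are inhibitory receptors best known on exhausted T cells but also present on myeloid cells, and PD-L1 (Cd274) and VISTA (Vsir) are inhibitory ligands of the B7 family. SIRPα (Sirpa) and the CD200 receptor (Cd200r1) hold macrophages and microglia in check when they bind CD47 and CD200 on neighbouring cells.

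Pdcd1 and its ligand Cd274 are a receptor and ligand pair among the 10 genes, and both had their highest mean in the midbrain, so the 250 bases before their RefSeq starts are shown. The RefSeq starts can differ from those of the GENCODE spans printed with the genes, as they do for Cd274, Havcr2 and Cd80. The sequences are of build GRCm38.p6, which had a promoter window for 5 of the 10 genes (Pdcd1, Cd274, Havcr2, Vsir and Cd80). The Pdcd1 window is chr1:94052554-94052803 on the minus strand and the Cd274 window is chr19:29367188-29367437 on the plus strand. Capitals mark GAGGAA, the core recognised by the myeloid factor PU.1.
Pdcd1: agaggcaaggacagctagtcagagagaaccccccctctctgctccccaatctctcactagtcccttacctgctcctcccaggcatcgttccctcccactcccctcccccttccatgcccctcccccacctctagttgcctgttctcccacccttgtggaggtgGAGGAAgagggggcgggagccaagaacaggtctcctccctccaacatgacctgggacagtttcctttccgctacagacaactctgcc
Cd274: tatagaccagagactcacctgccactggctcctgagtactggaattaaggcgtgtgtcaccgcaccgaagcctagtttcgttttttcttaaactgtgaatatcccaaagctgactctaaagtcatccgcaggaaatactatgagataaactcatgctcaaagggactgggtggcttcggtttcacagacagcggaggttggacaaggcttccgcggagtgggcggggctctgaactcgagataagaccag
On both strands, GAGGAA occurred once before Pdcd1, starting 87 bases before the start on the sense strand, once before Havcr2, starting 8 bases before it, and not in the windows of Cd274, Vsir or Cd80. Of all 32851 windows of 250 bases, 23.3% held it. The interferon response element core, written GAAA, 2 bases of any kind and GAAA again (2.98% of all windows), the STAT site TTCNNNGAA (7.02%) and the NF-kB consensus (7.25%) were found in none of the 5 windows. A match describes the letters in the window and not binding.

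The samples held 37680501 to 54131421 counts each, and 3 counts corresponded to 0.0554 to 0.0796 CPM (counts scaled to the library total), a floor that covers counting error only. The totals exceed the average read number given in the labels, and if mates were counted separately, 3 counts may stand for fewer than 3 fragments. The column of 1 striatum sample, that of male mouse 3, is named as PFC although its label gives the striatum. It was used as labelled, and results are also given without it. The 10 microglia markers looked for, among them Csf1r, P2ry12 and Tmem119, were all present and summed to 40402 ± 1557 CPM (SD) in midbrain, 45028 ± 2140 in striatum and 43816 ± 1789 in PFC samples (n = 12, 12 and 11). The T cell markers Cd3e, Cd3d, Cd3g, Cd8a and Cd8b1 were not among the genes of the table, and the 6 of 11 that were, Cd2, Cd4, Lck, Trac, Trbc2 and Cd5, summed to 0.422 to 8.61 CPM per midbrain sample, 0.583 to 2.03 per striatum sample and 0.542 to 2.55 per PFC sample. The midbrain sample of mouse 6 stood apart, with the highest sum of T cell markers (8.61 CPM, next 3.01) and of the 5 of 6 border macrophage markers present (25.5 CPM, next 14.0), and it is left out where stated. The authors state that low-expressed transcripts were removed, so a gene outside the table may have been dropped by that filter. Its absence is not a measured 0. In these bulk samples, fewer cells of a type and less RNA per cell cannot be told apart.

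Levels are compared between genes as CPM per kb of exon. The order, as means over the 35 samples, was Sirpa at 455 ± 54.1 (SD), Vsir at 391 ± 32.0, Cd86 at 135 ± 11.5, Havcr2 at 129 ± 13.6, Lag3 at 34.96 ± 10.1, Pdcd1 at 6.19 ± 4.998, Cd200r1 at 6.01 ± 0.958, Cd274 at 5.56 ± 1.61, Cd80 at 4.71 ± 0.722 and Cd40 at 0.434 ± 0.268. The per-sample ranges did not overlap between Vsir and Cd86, between Havcr2 and Lag3, or between Cd80 and Cd40. All other neighbours in the order overlapped. Pdcd1 held its place only in the midbrain, at 12.3 per kb, and at 3.35 in the striatum and 2.61 in the PFC its mean was below those of Cd200r1, Cd274 and Cd80. In CPM, Sirpa and Vsir ranked 45th and 52nd of the 21236 genes and Cd40 ranked 11640th. The coefficient of variation over all samples was 80.8% for Pdcd1 and 61.7% for Cd40, compared with 8.20% for Vsir and 8.51% for Cd86.

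**Figure D1:**
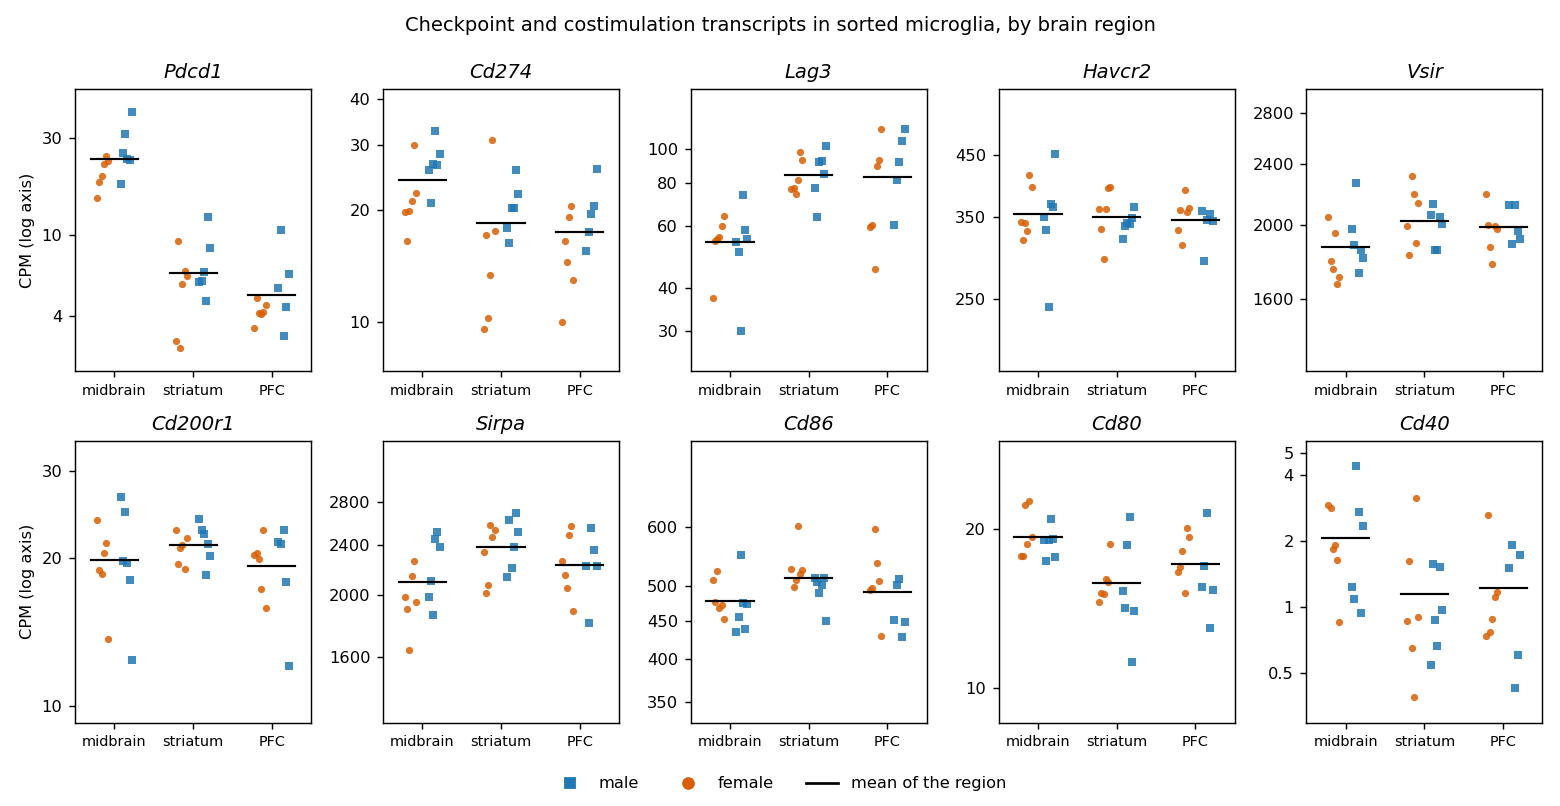
CPM of the 10 transcripts (vertical axes, log scale, a separate range for each gene) in the midbrain, striatum and PFC (horizontal axes), with 1 point per sample, squares for males, circles for females and a bar at the mean of the region. All 12 midbrain samples lie above all striatum and PFC samples for Pdcd1, while the ranges of the other 9 genes overlap.

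Pdcd1 (ENSMUSG00000026285, chr1:94038305-94052553, minus strand, GRCm38), which encodes PD-1, differed most between regions. It had a lowest, median and highest value of 15.3, 23.2 and 40.2 CPM in the midbrain, 2.78, 6.11 and 12.3 in striatal samples and 3.19, 4.42 and 10.6 in PFC samples. Every midbrain sample was therefore higher than every sample of the other regions. The means were 23.7 ± 6.70 CPM (SD, n = 12), 6.47 ± 2.63 (n = 12) and 5.04 ± 2.06 (n = 11). The level in the midbrain was 3.67 times that in the striatum and 4.71 times that in the PFC, with log2 fold changes of -1.87 (SE 0.18) for the striatum and -2.22 (SE 0.19) for the PFC against the midbrain. The midbrain was higher in all 12 mice compared with the striatum and in all 11 compared with the PFC. The striatum was higher than the PFC in 8 of 11 mice (log2 fold change 0.35, SE 0.18), and the ranges overlapped. This last difference was -0.03 when only mice 1 to 6 were fitted and 0.71 for mice 7 to 12. Without the striatum sample of mouse 3 the striatum differed from the midbrain by -1.84, and without the midbrain sample of mouse 6 by -1.88.

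Cd274 (ENSMUSG00000016496, chr19:29367455-29388095, plus strand), which encodes PD-L1, ranged from 16.6 to 32.6 CPM in the midbrain (median 24.0), from 9.62 to 31.0 in the striatum (median 17.8) and from 10.03 to 25.8 in the PFC (median 17.5). The midbrain tended to the high end, but the ranges overlapped in every pair of regions. The log2 fold change was -0.39 (SE 0.14) for the striatum and -0.45 (SE 0.14) for the PFC against the midbrain, with a lower value than in the midbrain in 10 of 12 and in 10 of 11 mice. In female mouse 10 the striatum, at 31.0 CPM, was slightly above the midbrain, at 29.9 CPM. Cd274 shares 511 exonic bases with an annotated antisense gene, and the libraries do not mark strand, so reads from these bases cannot be assigned to either gene.

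Because both ends of the pathway were read in the same sample, the ratio of Pdcd1 to Cd274 per kb could be taken. It was 1.85 ± 0.414 in the midbrain (SD, n = 12), 0.662 ± 0.1797 in the striatum (n = 12) and 0.559 ± 0.229 in the PFC (n = 11). The lowest midbrain ratio, 1.29, was above the highest of the striatum, 1.01, and of the PFC, 1.14. Receptor transcripts thus exceeded ligand transcripts per kb in each midbrain sample. This order rests on the annotated exon lengths used, 1930 bases for Pdcd1 and 3622 for Cd274. Without the scaling to length, the midbrain means were 23.7 and 24.2 CPM. Over the 35 samples the log2 CPM of Pdcd1 and Cd274 correlated with r = 0.667, and with r = 0.582 after the mean of each region was removed. Samples of a mouse share an animal and all samples share the scaling to depth, and no test was made.

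**Figure D2:**
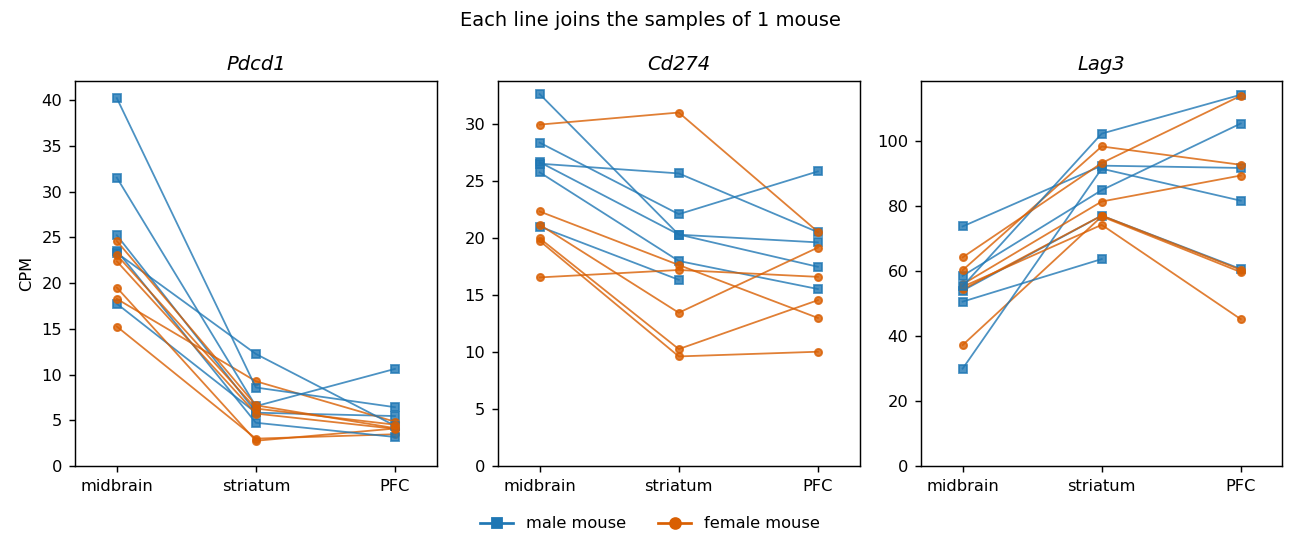
CPM (vertical axes, from 0) of Pdcd1, Cd274 and Lag3 in the midbrain, striatum and PFC, with a line for each mouse, blue squares for males and orange circles for females. Pdcd1 is lower in both other regions than in the midbrain in every mouse, Cd274 is lower in most mice, and Lag3 is higher in the striatum than in the midbrain in all 12.

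Lag3 (ENSMUSG00000030124, chr6:124904361-124911705, minus strand), an inhibitory receptor for MHC class II, had the opposite order. Its lowest, median and highest values were 30.0, 55.3 and 73.8 CPM in the midbrain, 63.8, 83.3 and 102 in striatal samples and 45.3, 89.5 and 114 in PFC samples. Most midbrain samples were below most of the others, and the ranges overlapped. The log2 fold change against the midbrain was 0.64 (SE 0.13) for the striatum, higher in 12 of 12 mice, and 0.62 (SE 0.13) for the PFC, higher in 10 of 11 mice. In female mouse 6 the PFC, at 45.3 CPM, was below the midbrain, at 55.3. Per kb, Lag3 was 2.21 ± 0.613 times Pdcd1 in the midbrain (SD, n = 12), 13.8 ± 5.61 times in the striatum (n = 12) and 16.6 ± 6.28 times in the PFC (n = 11).

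Lag3 also differed between mice 1 to 6 and mice 7 to 12 within a region. In the PFC, mice 1 to 6 had 45.3 to 81.8 CPM and mice 7 to 12 had 89.5 to 114, with no overlap. In the midbrain the same sets of mice had 30.0 to 55.3 and 55.4 to 73.8 CPM, again without overlap, and in the striatum 63.8 to 91.6 and 81.5 to 102, which overlapped. Between PFC and midbrain the log2 fold change was 0.39 when only mice 1 to 6 were fitted and 0.72 for mice 7 to 12. The labels give no batch for these sets, each of which holds males and females, and what they stand for was not tested. For the other 9 genes the sets overlapped in all 3 regions. The means of Cd274, Havcr2, Sirpa and Cd80 were also higher in mice 7 to 12 in all 3 regions. Those of Vsir and Cd200r1 were lower in all 3, and Pdcd1, Cd86 and Cd40 differed in direction between regions. The share of all genes whose sets do not overlap was not counted, so the split is not read as particular to Lag3.

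The remaining inhibitory receptors and ligands varied little by region. Sirpa (ENSMUSG00000037902, chr2:129592835-129632228), the receptor for CD47, was at 1642 to 2516 CPM in the midbrain (median 2047), 2015 to 2688 in the striatum (median 2424) and 1810 to 2563 in the PFC (median 2220). The striatum exceeded the midbrain in 11 of 12 mice, by a log2 fold change of 0.18 (SE 0.06). Vsir (ENSMUSG00000020101, chr10:60346851-60372684), which encodes VISTA, was at 1674 to 2270 CPM in the midbrain (median 1832), 1826 to 2314 in the striatum (median 2024) and 1775 to 2192 in the PFC (median 1976). The striatum exceeded the midbrain by 0.12 (SE 0.05) in log2, in 10 of 12 mice, and the ranges of both genes overlapped throughout. Vsir lies opposite to Cdh23, with no exonic bases in common.

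Havcr2 (ENSMUSG00000020399, chr11:46454935-46481255), which encodes TIM-3, had means of 354 ± 52.5 CPM (SD) in midbrain, 349 ± 28.6 in striatum and 346 ± 26.4 in PFC samples (n = 12, 12 and 11). Its 3 log2 fold changes lay between -0.04 and 0.01, with SEs of 0.06 to 0.07. Cd200r1 (ENSMUSG00000022667, chr16:44765736-44794978), the receptor for CD200, had means of 19.8 ± 4.14, 21.2 ± 1.69 and 19.3 ± 3.27 CPM in the same order, with log2 fold changes from -0.04 to 0.14 and an SE of 0.10. Neither gene had a region that stood apart from the others.

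Among the costimulatory genes, Cd86 and Cd80 encode ligands of the same receptors but were far apart in level. Cd86 (ENSMUSG00000022901, chr16:36603869-36666081) ranged from 434 to 551 CPM in the midbrain (median 473), from 449 to 602 in the striatum (median 511) and from 427 to 596 in the PFC (median 498). Cd80 (ENSMUSG00000075122, chr16:38455561-38496335) ranged from 17.4 to 22.6 CPM in the midbrain (median 19.04), from 11.2 to 21.1 in the striatum (median 15.2) and from 12.97 to 21.4 in the PFC (median 16.9). Cd86 was slightly higher outside the midbrain and Cd80 slightly lower, with overlapping ranges. Against the midbrain, Cd80 had a log2 fold change of -0.29 (SE 0.08) in the striatum, lower in 11 of 12 mice, and of -0.17 (SE 0.08) in the PFC, lower in 10 of 11. For Cd86 these were 0.10 (SE 0.05), higher in 9 of 12 mice, and 0.04 (SE 0.05), higher in 6 of 11. The ratio of Cd86 to Cd80 per kb was 25.2 ± 2.60 in the midbrain (SD, n = 12), 33.6 ± 5.76 in the striatum (n = 12) and 29.4 ± 4.03 in the PFC (n = 11), again with overlap.

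Cd40 (ENSMUSG00000017652, chr2:165055627-165072948) was the least abundant, at 18 to 203 counts per sample. Its lowest, median and highest values were 0.855, 1.87 and 4.39 CPM in the midbrain, 0.387, 0.885 and 3.12 in striatal samples and 0.429, 1.11 and 2.61 in PFC samples. The midbrain values were the highest on average, and the ranges of all 3 regions overlapped widely. The log2 fold change against the midbrain was -0.85 (SE 0.31) in the striatum, lower in 8 of 12 mice, and -0.75 (SE 0.32) in the PFC, lower in 9 of 11 mice.

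**Figure D3:**
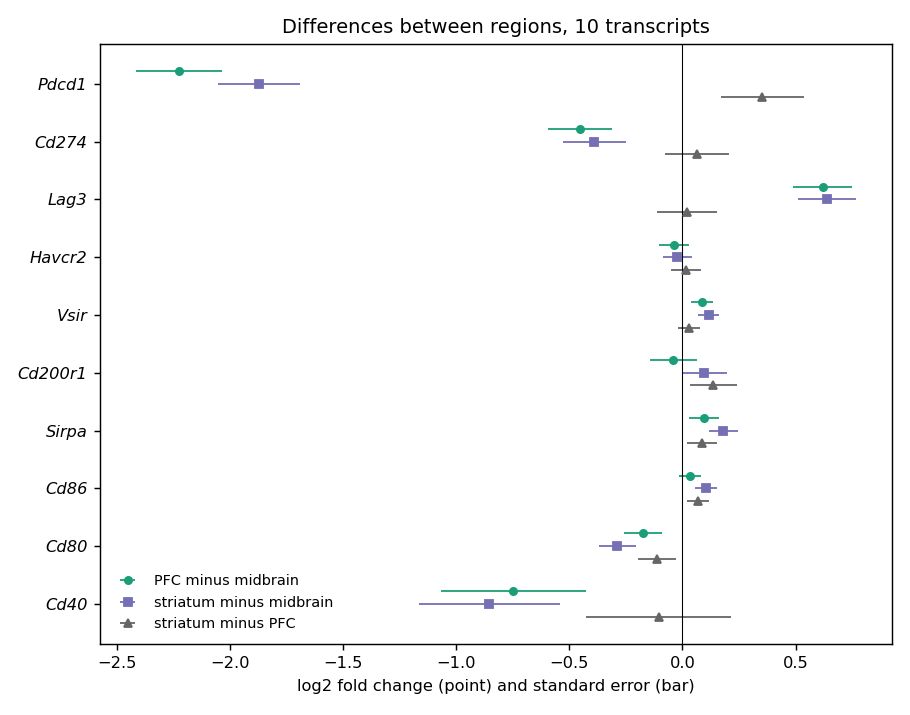
Log2 fold change (horizontal axis, points) and its standard error (bars) for the 10 transcripts (vertical axis) in PFC minus midbrain (circles), striatum minus midbrain (squares) and striatum minus PFC (triangles). Pdcd1 lies near -2 for both comparisons with the midbrain, Lag3 lies above 0 for both, and the points for Havcr2, Vsir, Cd200r1, Sirpa and Cd86 lie close to 0.

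A transcript was counted as differentially expressed (DE) between 2 regions when it had a main effect of region at a Benjamini-Hochberg adjusted p under 0.05, an unadjusted post hoc p under 0.05 and a fold change over 1.2, all from edgeR's quasi-likelihood F-test across all genes. The region fit counted samples of a mouse as separate, so its SEs and p-values, also those given further on, leave out the pairing within mice. By this rule 8.89% of all genes had a region effect, and 5.99% were DE for PFC against midbrain (2.75% higher and 3.24% lower), 6.47% for striatum against midbrain (3.5% higher and 2.98% lower) and 3.14% for striatum against PFC. Of the 10 genes, 3 passed in each comparison with the midbrain (Pdcd1 and Cd274 lower, Lag3 higher) and 0 passed between striatum and PFC, where 0 also had an unadjusted p under 0.05. The median log2 fold change of the 10 was -0.04 for the PFC and 0.04 for the striatum against the midbrain, beside 0.01 and 0.01 over all genes. Since the genes were chosen with these values known, nothing is read from the counts. For Pdcd1, ranges that did not overlap with the midbrain were found for 0.348% of all genes in the PFC (lower) and 0.155% in the striatum (lower). The 2 comparisons share the midbrain samples. The call of Cd274 held in 7 of 23 alternative analyses for the PFC and 6 of 23 for the striatum, and when each mouse was left out in turn it remained DE only without mouse 10. Without the midbrain sample of mouse 6, 2 of the 10 genes were DE against the midbrain in each pair (Pdcd1 and Lag3), while the log2 fold change of Cd274 was -0.46 for the PFC and -0.40 for the striatum. When the mouse replaced sex as a blocking term, Pdcd1 was also DE between striatum and PFC, as were 1032 of all 21236 genes. Cd80 was DE between striatum and midbrain in 10 of 23 alternatives, among them the blocking term and the fits without mice 5, 7 and 12. The alternatives use the same region values, so these calls too support nothing about the 10 genes.

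Sums of CPM over marker lists of other cells were set beside these differences. The sum of 6 neuronal markers was 1.84 to 5.53 CPM in the midbrain, 4.51 to 13.03 in the striatum and 9.69 to 24.0 in the PFC, and that of 6 astrocyte markers was 175 to 218, 228 to 315 and 223 to 340 CPM, most of it Slc1a3. Both had their lower value in the midbrain in 12 of 12 mice set against the striatum and in 11 of 11 against the PFC, in the direction of Lag3 and opposite to Pdcd1. The sum of microglia markers was likewise below that of the PFC in 11 of 11 mice and below that of the striatum in 11 of 12. Their part in the results was not tested. The 6 dendritic cell markers summed to 5.12 to 20.3 CPM in the midbrain, 3.80 to 8.67 in the striatum and 4.71 to 18.6 in the PFC, and the 4 of 5 B cell markers in the table, mostly Cd79b, to 33.2 to 55.5, 36.4 to 55.2 and 31.2 to 48.2 CPM. For NK cells, 3 of 5 markers were in the table (0 to 3.90 CPM in the midbrain, 0 to 1.18 in the striatum and 0 to 1.33 in the PFC), for monocytes 4 of 5 (0.917 to 6.28, 1.66 to 4.81 and 2.15 to 7.89 CPM) and for neutrophils 2 of 4 (0 to 0.962, 0 to 0.548 and 0 to 22.8 CPM). Border macrophage markers summed to 1.81 to 25.5 CPM in the midbrain, 3.56 to 9.80 in the striatum and 3.21 to 10.7 in the PFC. Of these markers, Cd163 was at 0 in 25 of 35 samples, F13a1 in 6 and Cbr2 in 2. Mrc1 (mean 4.50 CPM) and Pf4 (mean 0.738 CPM) were present in every sample. The 6 oligodendrocyte markers gave 292 to 485, 288 to 802 and 227 to 503 CPM and the 5 endothelial markers 8.65 to 33.4, 19.4 to 53.1 and 14.9 to 33.7 CPM. Without the midbrain sample of mouse 6, the differences of Pdcd1 against the midbrain were -2.23 in the PFC and -1.88 in the striatum, and those of Lag3 were 0.63 and 0.65.

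For each of the 10 genes, the transcripts most like it were taken as those with the highest correlation of log2 CPM over the 35 samples, among 12251 genes with a symbol and a mean of at least 1 CPM. For Pdcd1 these were Lat2 (r = 0.936), an adaptor of immune receptor signalling, Capg (r = 0.929), an actin-capping protein, and Tnfsf13b (r = 0.926), the B cell survival factor BAFF. With region means removed, r was 0.789, 0.584 and 0.701. For Cd274 they were Fgl2 (r = 0.781), Hcar2 (r = 0.747), the niacin receptor, and Myo1g (r = 0.736), and for Lag3 Hnrnpul1 (r = 0.876), Nckap5l (r = 0.870) and Whrn (r = 0.865). The closest to Havcr2 were Trp53bp1, Brpf1 and Arhgef6 (r from 0.819 to 0.830), to Vsir Mrm2, Mms19 and Laptm4b (0.745 to 0.768), to Cd200r1 Calhm2, Adora3 and Cnot8 (0.795 to 0.801) and to Sirpa Rtn4rl1, Snx18 and Pnpla7 (0.810 to 0.846). Cd86 was closest to 0610040J01Rik, Creld2 and Usf1 (0.716 to 0.762), Cd80 to Eif4e3, Parp9 and Snap23 (0.669 to 0.682), and Cd40 to Ifi204, Slfn2 and Phf11b (0.628 to 0.671). These values are a description over samples that share mice, regions and depth scaling.

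Sex was not used to choose the genes and was tested as a main effect with region as a term. Pdcd1 and Cd274 were more highly expressed in males on the unadjusted p alone. Pdcd1 had a median of 24.4 CPM in midbrain samples of males and 20.96 CPM in those of females, with 6.24 and 6.02 CPM for the striatum and 5.48 and 4.13 CPM for the PFC. Male midbrain samples lay between 17.8 and 40.2 CPM and female ones between 15.3 and 24.6, so that 3 of 6 males were above every female and the ranges overlapped. The highest samples of all 3 regions were male. The log2 fold change was 0.43 (SE 0.15), with an unadjusted p of 0.00597 in edgeR's test and an adjusted p of 0.283 over all genes. Cd274 had medians of 26.6 CPM in midbrain samples of males and 20.6 CPM in those of females, with 20.3 and 15.3 CPM for the striatum and 19.6 and 15.6 CPM for the PFC. Its log2 fold change was 0.32 (SE 0.11), with an unadjusted p of 0.00859 and an adjusted p of 0.338. The lowest values of each region were female and the ranges of the sexes overlapped in all regions.

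By the rule of an unadjusted p under 0.05 and a fold change over 1.2, 4.13% of all genes were DE by sex and 2.66% were higher in males. Of the 10 genes 2 passed, both higher in males, and 0 passed at an adjusted p under 0.05, where the share of all genes was 0.339%. Samples of a mouse were counted as separate in this fit. When counts were summed per mouse, the log2 fold change was 0.47 for Pdcd1 (unadjusted p = 0.00801, edgeR) and 0.32 for Cd274 (unadjusted p = 0.0449, edgeR). Both passed the rule. In mice 7 to 12 alone neither passed, with 0.31 for Pdcd1 and 0.24 for Cd274. Cd274 did not reach the fold threshold without mouse 2 either (0.24), and without mouse 10 its difference was 0.48.

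Cd86 had a slightly lower mean in males than in females (log2 fold change -0.09, SE 0.04, unadjusted p = 0.0359, adjusted p = 0.573), which did not reach the fold change of the rule. The other 7 genes had log2 fold changes between -0.06 and 0.08 and unadjusted p from 0.173 for Sirpa to 0.813 for Cd40. The interval of 2 standard errors around the difference was -0.06 to 0.10 for Vsir and -0.15 to 0.06 for Havcr2, but -0.58 to 0.45 for Cd40, whose counts were low. These intervals come from the fit that counted samples of a mouse as separate, so they may be too narrow. They do not show that the sexes were alike.

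Within single regions, 4.84% of all genes passed in the midbrain, 2.28% in the striatum and 5.29% in the PFC, and 0 of the 10 genes passed in any (edgeR, 0 with an unadjusted p under 0.05). Pdcd1 differed by 0.39 (SE 0.25) in the midbrain, 0.38 (SE 0.26) in the striatum and 0.52 (SE 0.27) in the PFC, and Cd274 by 0.31 (SE 0.20), 0.31 (SE 0.20) and 0.34 (SE 0.21). The difference was positive for both genes in all 3 regions. An interaction of region and sex was called for 0% of genes by edgeR at an adjusted p under 0.05. For the 10 genes the unadjusted interaction p lay between 0.427 for Vsir and 0.993 for Cd274, with 0 under 0.05 and adjusted values of 1.

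**Figure D4:**
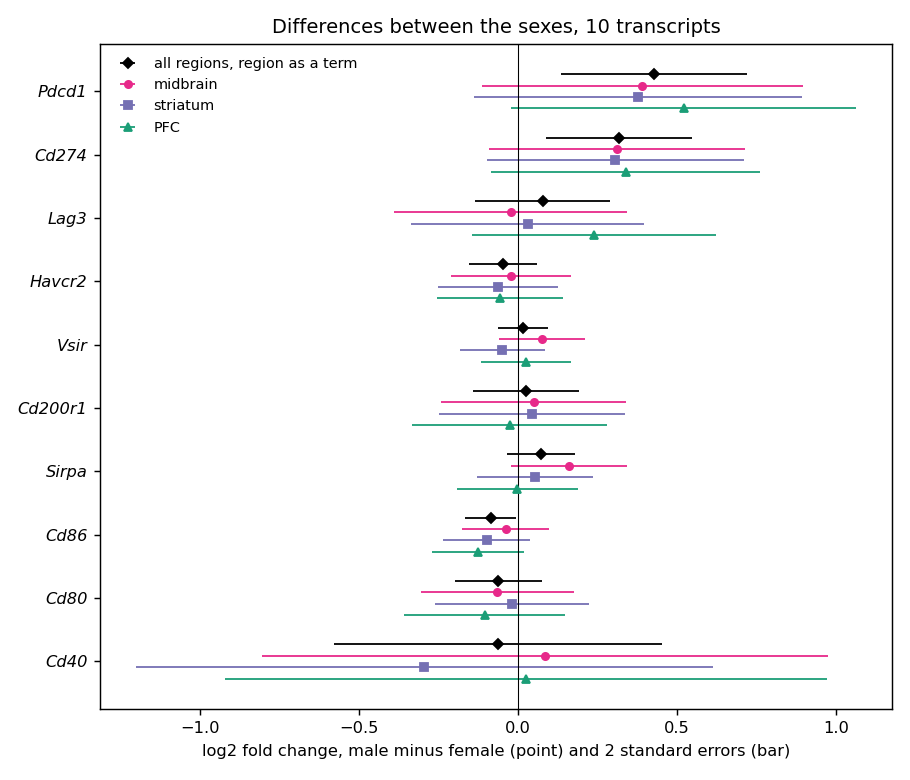
Log2 fold change of male minus female (horizontal axis, points) with 2 standard errors on each side (bars) for the 10 transcripts (vertical axis), over all regions (black diamonds) and within the midbrain (circles), striatum (squares) and PFC (triangles). The black bars of Pdcd1 and Cd274 lie above 0 and that of Cd86 just below it, and the bars within single regions cross 0.

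The other genes of these pathways were taken from a list of 66 ligands, receptors and signalling partners, of which 48 were in the table and 33 had a mean of at least 1 CPM. Several of the partners best known from T cells were not among the genes of the table, namely Ctla4, Cd40lg, Tigit, Cd226, Cd96 and Tnfrsf9, and neither was Pdcd1lg2, which encodes the second PD-1 ligand. Cd28, the receptor that CD80 and CD86 engage, averaged 0.0328 CPM, under the floor of 3 counts. By region, 9 of the 48 passed for PFC against midbrain (1 higher, 8 lower), 7 for striatum against midbrain (1 higher, 6 lower) and 4 for striatum against PFC (all higher), beside 5.99%, 6.47% and 3.14% of all genes. Their median log2 fold changes were -0.09, -0.09 and 0.09. Without the midbrain sample of mouse 6 these counts were 8 and 7 for the comparisons with the midbrain. Of the 33 partners with a mean of at least 1 CPM, 7 passed for PFC against midbrain, 6 for striatum against midbrain and 3 for striatum against PFC. The shares of all genes include low ones, as 12297 of the 21236 had a mean of at least 1 CPM, so they are not matched for level.

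Among the direct partners of the inhibitory receptors, 8 of 11 were in the table and 1 passed the rule. Lgals3, galectin-3, which binds LAG-3, was at 9.82 to 23.8 CPM in the midbrain (median 13.8), 4.62 to 10.3 in the striatum (median 6.93) and 1.42 to 5.48 in the PFC (median 2.15). Midbrain and PFC did not overlap. Against the midbrain, the PFC differed by a log2 fold change of -2.34 (SE 0.22, adjusted p = 7.34e-10), lower in 11 of 11 mice, and the striatum by -1.09 (SE 0.20, adjusted p = 4.36e-04), in 12 of 12. The striatum also exceeded the PFC, by 1.24 (SE 0.21, adjusted p = 0.00153), in 11 of 11 mice.

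The others did not pass the rule. Cd47, the ligand of SIRPα, averaged 162 ± 14.9 CPM (SD) in midbrain, 192 ± 9.33 in striatum and 181 ± 19.6 in PFC samples (n = 12, 12 and 11). Its difference between striatum and midbrain was 0.24 in log2 (SE 0.05, edgeR adjusted p = 0.0028), just under a fold change of 1.2. Selplg, which encodes PSGL-1, a partner of VISTA, averaged 4754, 5402 and 4825 CPM in the midbrain, striatum and PFC. The striatum exceeded the midbrain by 0.18 in log2 (SE 0.05, edgeR adjusted p = 0.0268), in 12 of 12 mice, also under a fold change of 1.2. The authors, who used DESeq2, name Selplg among the transcripts enriched in the striatum. The source of this difference was not tested. Lgals9, galectin-9, and Ceacam1, both ligands of TIM-3, had log2 fold changes between -0.10 and 0.13, and Hmgb1, another TIM-3 ligand, between -0.08 and 0.14. Cd200 and Igsf11, the ligands of the CD200 receptor and of VISTA, averaged 0.376 and 0.309 CPM.

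The list of other inhibitory myeloid receptors also held the gene of CD48, which is the ligand of Cd244a and not an inhibitory receptor. Of the 8 genes of this list in the table, 6 passed between PFC and midbrain and 4 between striatum and midbrain. These counts stand beside 5.99% and 6.47% of all genes, and the gene of CD48 passed in neither comparison. The list was chosen with earlier results of these data known, and the group was not tested. Cd300a, an inhibitory receptor for membrane phospholipids, was higher outside the midbrain, at 222 to 318 CPM in the midbrain, 278 to 360 in the striatum and 299 to 386 in the PFC. Its log2 fold changes against the midbrain were 0.44 (SE 0.06, adjusted p = 5.69e-07) in the PFC, in 11 of 11 mice, and 0.34 (SE 0.05, adjusted p = 6.81e-05) in the striatum, in 12 of 12. Cd300lf, of the same family, moved the other way, with 3.46 ± 1.501 CPM (SD) in midbrain, 1.42 ± 0.566 in striatum and 1.23 ± 0.684 in PFC samples (n = 12, 12 and 11). Its log2 fold change was -1.51 (SE 0.30, adjusted p = 6.40e-04) in the PFC and -1.27 (SE 0.28, adjusted p = 0.00387) in the striatum. Pirb, a receptor for MHC class I, was lower in the PFC (-0.70, SE 0.13, adjusted p = 3.29e-04) and the striatum (-0.47, SE 0.13, adjusted p = 0.0158) than in the midbrain. Lair1, a collagen receptor, was lower in the PFC (-0.34, SE 0.05, adjusted p = 6.98e-06), in 11 of 11 mice. Cd244a, the receptor for CD48, averaged 4.01, 1.78 and 1.25 CPM in the midbrain, striatum and PFC and was lower than in the midbrain in both (-1.71, SE 0.25, adjusted p = 1.14e-05 in the PFC, and -1.17, SE 0.24, adjusted p = 0.00164 in the striatum). Clec12a passed for the PFC, at 0.0499 CPM on average against 1.17 in the midbrain, but not without the midbrain sample of mouse 6. Sirpa, Cd200r1, Pirb and the Cd300 genes belong to families of similar genes, between which the counting could have split reads.

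Among TNF family costimulation genes, 1 of the 7 in the table passed in each comparison, Tnfsf8, which encodes the ligand of CD30. It was at 3.40 to 9.79 CPM in the midbrain, 0.313 to 3.64 in the striatum and 0 to 1.52 in the PFC, with no overlap between midbrain and PFC. Its log2 fold change against the midbrain was -2.88 (SE 0.43, adjusted p = 1.29e-05) in the PFC and -1.45 (SE 0.39, adjusted p = 0.0166) in the striatum, lower in every mouse. Between striatum and PFC, Tnfsf8 (1.43, SE 0.41, adjusted p = 0.0981) and Cd244a (0.54, SE 0.25, adjusted p = 0.385) passed on the unadjusted p of the pair. The call of Cd244a was lost in 7 of 23 alternatives, among them the fits without mouse 1, 7, 8, 9 or 11, with values down to 0.40 when a mouse was left out. In the list of receptors of CD80 and CD86 and related genes, Btla passed against the midbrain at very low levels. It averaged 0.156 CPM in the midbrain. Its averages of 0.0266 CPM in the striatum and 0.00766 in the PFC were under the floor of 3 counts. None of the 8 genes of the CD40 pathway in the table (Traf and non-canonical NF-kB genes) or the 6 phosphatases and adaptors passed between regions. Neither did the nectin family members Pvr and Nectin2, nor the 3 relatives of Cd200r1 and Sirpa in the table. The listed relatives of Havcr2, Timd4 and Havcr1, were not among the genes of the table. Ptpn6, the phosphatase SHP-1 that several of these receptors recruit, had a log2 fold change of -0.19 (SE 0.05, adjusted p = 0.0267) in the PFC against the midbrain, under a fold change of 1.2. With the mouse as the blocking term, Btla and Clec12a no longer passed in any comparison, while Icosl, Cd28 and Cd200r4 passed for PFC against midbrain, Map3k14 for striatum against midbrain, and Cd28 and Cd200r4 for striatum against PFC. Btla, Clec12a, Ptpn6, Icosl, Cd200r4 and Tnfrsf8 fall outside the rule for named genes and were named after their values were seen.

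**Figure D5:**
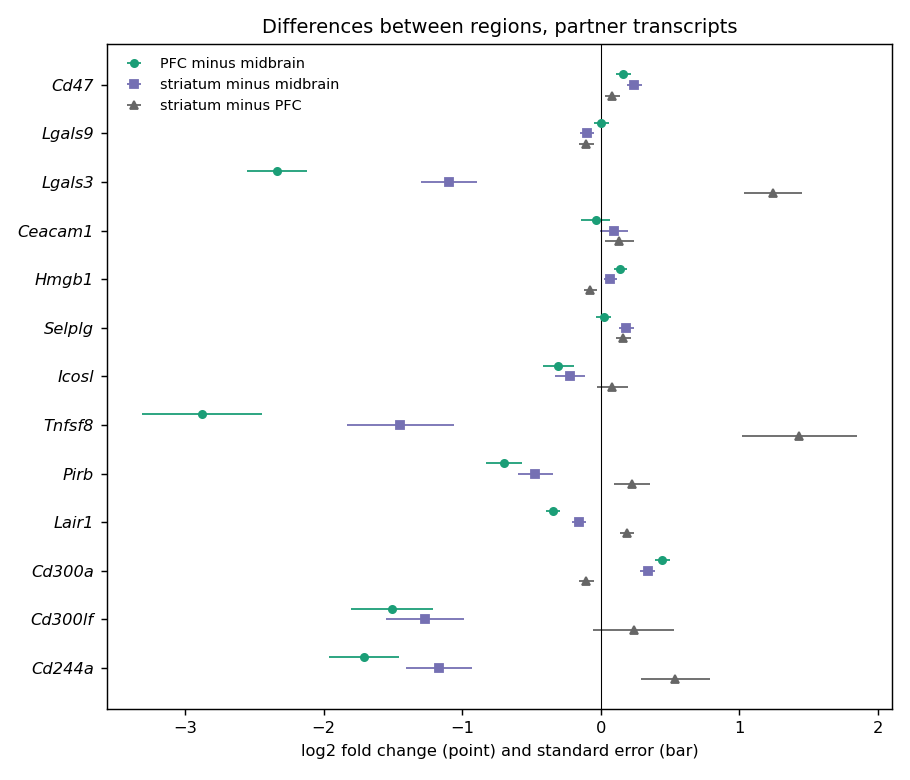
Log2 fold change (horizontal axis, points) and standard error (bars) of 13 partner transcripts (vertical axis) in PFC minus midbrain (circles), striatum minus midbrain (squares) and striatum minus PFC (triangles). Lgals3, Tnfsf8, Cd300lf and Cd244a lie below -1 for both comparisons with the midbrain, and Cd300a lies above 0 for both.

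By sex, 5 of the 48 partners passed, all higher in males, beside 2.66% of all genes higher in males. Samples of a mouse were again counted as separate. Map3k14, the kinase NIK that acts downstream of CD40, averaged 25.0 CPM in males and 18.3 in females (log2 fold change 0.44, SE 0.08, adjusted p = 0.00727). It was the only partner with an adjusted p under 0.05 in this fit. Across the alternatives its log2 fold change lay between 0.32 and 0.59. Cd276, which encodes the B7 family member B7-H3, averaged 44.5 and 34.1 CPM (0.39, SE 0.09, adjusted p = 0.0529). The difference of Cd276 was 0.10 in mice 1 to 6 alone. With counts summed per mouse it was 0.38 (unadjusted p = 0.0129, edgeR). Dok2, an inhibitory adaptor, averaged 1.55 and 0.851 CPM (0.91, SE 0.29, adjusted p = 0.222). Cd28 and Tnfrsf8, which lie under 1 CPM, also passed on the unadjusted p.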

How the data were processed

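RNA-seq was analysed in 35 samples of sorted tdTomato-positive microglia from 12 mice. The authors checked reads with FastQC, trimmed them with Trimmomatic and used HISAT2 for alignment to GRCm38. The deposited table holds unnormalised counts for 21236 genes, the number that the authors give as left after low-expressed transcripts were removed. The counting tool, annotation release, use of strand and whether mates were counted separately are not given in the sources used here. The library kits do not mark strand. Of the genes in the table, 12857 reached a mean of 1 CPM in at least 1 group of region and sex, so a 1 CPM filter was not evident. Total counts were 37680501 to 54131421 per sample (median 47378508).

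Counts were normalised by TMM and tested with edgeR 4.0.16 (R 4.3.3) quasi-likelihood F-tests, with region and sex as terms and Benjamini-Hochberg adjustment over all genes. Region pairs were called at an adjusted p under 0.05 for region, an unadjusted p under 0.05 for the pair and a fold change over 1.2, and sex at an unadjusted p under 0.05 and a fold change over 1.2. Sex within a region and the interaction were fitted on the 6 group means. CPM are TMM-scaled, and log2 CPM used a prior count of 2. Gene positions came from a GENCODE annotation of GRCm38. The 10 genes and the partner and marker lists were chosen with earlier results of these data known. Named were all 10 genes, their direct ligands and receptors, up to 8 called partners per comparison averaging 1 CPM or more with the largest log2 fold change, and for each gene the 3 most correlated genes. Samples of a mouse came from the same animal, and their residuals over 8114 genes had an average r of 0.359 in 34 pairs (32 over 0.1), compared with -0.0701 in 170 pairs of different mice. Counts of 21236 genes were simulated with 200 changed 2-fold, taken from genes with a mean of at least 1 CPM. Calls were made at an adjusted p under 0.05. For PFC against midbrain 186 were recovered with 19 false calls, and for sex 189 with 17. In both, false calls made up a larger share of the calls than the threshold of 0.05. The simulated samples were independent, so these numbers do not cover samples that share a mouse or the rule on the unadjusted p. They also do not cover genes with a lower mean or smaller changes. Alternatives were another normalisation (DESeq2 size factors), DESeq2 1.42.0, filters on low counts, the mouse as a block, limma 3.58.1 voom with the mouse as random effect, counts summed per mouse, mice 1 to 6 and 7 to 12, adjusted p alone, and leaving out each mouse or the striatum sample of mouse 3. Leaving out the midbrain sample of mouse 6 was added after seeing the data. Figures were drawn with matplotlib 3.10.9.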

Additional observations from a re-analysis of the deposited data

Results flagged for a closer look

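Within each group of region and sex, the highest and the lowest sample were compared with the rest by Dixon's ratio, which chance exceeds in about 1 in 20 groups. Of 60 groups, 7 held such a sample, where 3 would be exceeded by chance. Cd274 was at 31.0 CPM in the striatum of female mouse 10, with the other females at 9.62 to 17.6. Lag3 was at 37.3 CPM in the midbrain of female mouse 2, with the others at 54.4 to 64.3. Havcr2 was at 293 CPM in the PFC of male mouse 5, with the others at 344 to 358. Cd86 was at 551 CPM in the midbrain of male mouse 5, with the others at 434 to 475, and at 602 CPM in the striatum of female mouse 8, with the others at 498 to 527. Cd80 was at 18.8 CPM in the striatum of female mouse 12, with the others at 14.6 to 16.1. Cd40 was at 2.61 CPM in the PFC of female mouse 4, with the others at 0.736 to 1.17.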

How the results depend on the processing

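No region log2 fold change of a named gene that was called changed sign under the alternatives, and of the counts of calls 340 stayed within 1.5 times and 40 did not. Over all genes, mice 1 to 6 alone gave 512 genes with a region effect, 397 for PFC against midbrain, 411 for striatum against midbrain and 279 for striatum against PFC, compared with 1888, 1271, 1375 and 667, and mice 7 to 12 alone gave 1183 with a region effect and 394 for striatum against PFC (fewer samples were tested). With the mouse as a block, paired within animals, 2977 had a region effect and 1032 differed between striatum and PFC, which the term for mice 1 to 6 against 7 to 12 put at 1009 and the adjusted p at 121. For sex (878 genes), a mean of at least 1 CPM left 453, voom 565 and the adjusted p 72. Of the 10 genes, 1 was called between striatum and PFC (Pdcd1) with the block, without the striatum sample of mouse 3 and in mice 7 to 12, and by sex 0 in mice 7 to 12 and 0 by adjusted p. The same term gave 1 by sex within the striatum. Leaving out each mouse gave 0 to 1 between striatum and PFC, 1 to 2 by sex and 0 to 1 by sex in the midbrain, the striatum or the PFC. Partners called numbered 5 for PFC against midbrain, 3 for striatum against midbrain and 1 for striatum against PFC in mice 1 to 6, and 1 for striatum against PFC by adjusted p. By sex they were 3 with a mean of at least 1 CPM, 3 in mice 1 to 6, 8 in mice 7 to 12 and 1 by adjusted p, and 3 to 7 with a mouse left out. The uncalled sex difference changed sign for Vsir (-0.00195 without mouse 1, and up to 0.0348 with a mouse left out), Cd200r1 (-0.0410, -0.0206 and -0.0199 without mice 1, 5 and 12, -0.0942 in mice 7 to 12, and up to 0.108 with a mouse left out) and Cd40 (0.129, 0.00642 and 0.0785 without mice 4, 7 and 10, 0.0056 in mice 1 to 6, and down to -0.243 with a mouse left out). The cause of these changes was not tested. Of the 10 genes, Cd40 had the fewest counts, 18 to 203 per sample. Sex within regions was not run with the block or in either set of mice alone.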
